A study of Homo sapiens with 2 samples.

Results

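Knockdown of periostin in MRC-5 lung fibroblasts was followed in 9 genes of the MHC class I pathway, HLA-B, HLA-C, HLA-E, HLA-F, HLA-G, B2M, TAP1, TAP2 and TAPBP. They were chosen by name, with earlier results of these data known. All 9 were on the array, among 21743 genes that could be named through RefSeq, and they were read by 14 probes on 23 spots. MRC-5, an established cell line, grew out of human fetal lung as fibroblasts, and periostin, encoded by POSTN, is a matricellular protein that binds integrins on these cells. Cells of 1 culture received control siRNA and cells of 1 culture received periostin siRNA, both at 10 nM for 48 h with the RNAiMAX reagent, and the RNA of each was hybridized to 1 single-colour Agilent array. With 1 array per condition no test between the conditions was possible, no p-value is given, and a difference between the siRNAs cannot be told apart from a difference between the cultures.

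MHC class I molecules show peptides from inside the cell to CD8+ T cells and to natural killer cells. A heavy chain encoded by an HLA gene pairs with β2-microglobulin, the product of B2M, in the endoplasmic reticulum. The transporter formed by TAP1 and TAP2 pumps peptides from the cytosol into that compartment, and tapasin, the product of TAPBP, holds the empty heavy chain beside the transporter until a peptide has bound. Nearly all nucleated cells, fibroblasts included, make these proteins, and interferons are known to raise the transcription of their genes.

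Values are given as scaled signals, the intensity of a probe after both arrays were brought to a common 75th percentile of 377, and as log2 ratios, the knockdown over its control. The signal was well above background, as the scanner software flags it, for 58.0% of the 58717 spots with control siRNA and 58.9% with periostin siRNA, and no spot was saturated. A ratio could be given for 16052 genes, whose median log2 ratio was 0.06. The targeted gene, POSTN, went from a scaled signal of 2638 to 280, a log2 ratio of -3.24. Of 10 fibroblast markers all 10 had a ratio, 3 above 0 and 7 below, against 54.5% of all genes above 0. The log2 ratios ran from -0.90 for PDGFRA to 0.83 for LUM. Their signals summed to 369333 and 326288, of which VIM gave 189263 and 174022. Of 11 immune cell markers 10 were named, and their signals summed to 487 in the control culture and 737 after knockdown, while 5 epithelial markers summed to 73.8 and 196, among them EPCAM at 34.6 and 135, and 5 endothelial markers to 167 and 160. Among the immune markers MS4A1 and LAPTM5 were not well above background on either array, and PTPRC, the pan-leukocyte marker, had scaled signals of 17.6 and 25.1. CD14, a monocyte marker, was the brightest of the immune markers, at 287 and 549. ITGAM had a log2 ratio of 1.58 ± 0.60 (SD over 10 spots) from a signal of 10.7, and 0.40 under normexp, an alternative background correction. CSF1R and CORO1A were lower, at 42.1 and 23.7 and at 89.9 and 66.6. The part of these low marker signals in the ratios below was not tested, and in such bulk RNA more cells of a type and more RNA per cell cannot be told apart.

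The promoters of the members are shown first, since genes of this pathway are known to share regulatory letters. By the brightest probe 8 of the 9 genes had a higher signal with periostin siRNA, against 54.5% of all genes with a ratio. The members were chosen with earlier results known, and nothing is read from that count. A link between the letters and the signals was not tested. The 200 bases before the start of the gene were taken from RefSeq on GRCh38.p14, and 8 of the 9 members had at least 1 such window. Capitals mark matches on either strand to AANNGAAA, the core that interferon regulatory factors bind, and to the kappa B consensus bound by NF-κB. The windows of HLA-B, HLA-C and HLA-F are shown for the heavy chains, those of B2M, TAP1 and TAPBP for their partners, and that of TAP2 because its ratio had the opposite sign; TAP1 has 2 windows, of which the one with matches is shown.
HLA-B, chr6:31357180-31357379, minus strand: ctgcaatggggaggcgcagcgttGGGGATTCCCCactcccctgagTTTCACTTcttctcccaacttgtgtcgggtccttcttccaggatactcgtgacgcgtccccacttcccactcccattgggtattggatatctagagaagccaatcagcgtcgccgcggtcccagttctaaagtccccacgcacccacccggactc
HLA-C, chr6:31272093-31272292, minus strand: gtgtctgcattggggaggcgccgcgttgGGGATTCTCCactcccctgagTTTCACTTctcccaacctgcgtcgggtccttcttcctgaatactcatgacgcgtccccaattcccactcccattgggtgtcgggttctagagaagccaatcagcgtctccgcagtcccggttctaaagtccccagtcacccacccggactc
HLA-F, chr6:29723234-29723433, plus strand: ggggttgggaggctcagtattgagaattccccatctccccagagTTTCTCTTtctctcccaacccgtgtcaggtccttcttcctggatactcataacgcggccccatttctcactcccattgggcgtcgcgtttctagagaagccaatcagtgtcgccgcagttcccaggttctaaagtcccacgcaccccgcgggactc
B2M, chr15:44711317-44711516, plus strand: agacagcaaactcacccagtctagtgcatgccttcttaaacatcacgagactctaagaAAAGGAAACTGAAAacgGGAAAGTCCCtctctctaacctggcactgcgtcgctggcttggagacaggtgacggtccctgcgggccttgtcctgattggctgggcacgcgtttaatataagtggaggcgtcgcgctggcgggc
TAP1, chr6:32853705-32853904, minus strand: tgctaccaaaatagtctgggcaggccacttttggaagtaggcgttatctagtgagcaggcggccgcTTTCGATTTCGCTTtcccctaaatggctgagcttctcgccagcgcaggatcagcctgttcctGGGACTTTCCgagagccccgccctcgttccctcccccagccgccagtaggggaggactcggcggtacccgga
TAPBP, chr6:33314079-33314278, minus strand: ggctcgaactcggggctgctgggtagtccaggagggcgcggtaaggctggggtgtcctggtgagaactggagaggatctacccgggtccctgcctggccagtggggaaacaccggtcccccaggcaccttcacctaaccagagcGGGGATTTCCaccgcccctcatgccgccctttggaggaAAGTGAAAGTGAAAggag
TAP2, chr6:32838740-32838939, minus strand: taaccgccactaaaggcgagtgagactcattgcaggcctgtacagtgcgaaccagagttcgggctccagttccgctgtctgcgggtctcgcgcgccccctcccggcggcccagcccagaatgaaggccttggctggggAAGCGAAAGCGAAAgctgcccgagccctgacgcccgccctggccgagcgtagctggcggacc
Letters of the AANNGAAA core were in the windows of 7 of the 8 genes, or 7 of their 11 windows, against 16.1% of 35116 RefSeq windows of the same length. In HLA-B, HLA-C and HLA-F a single match began 155, 151 and 156 bases before the start of the gene. B2M, TAP1, TAP2 and TAPBP each held a pair of overlapping matches. HLA-G, which has 3 windows, was the gene without this match. The kappa B consensus was in 6 of the 8 genes, or 6 of the 11 windows, against 8.14% of all windows, and TAP2 and HLA-F had no match to it in theirs. CCAAT on either strand, the letters bound by NF-Y, was in 5 of the 11 windows against 28.0% of windows, and TGACGC, part of the X2 box of MHC promoters, was in 3 of the 11 against 6.67%. The HLA-B window shared 87.7% of aligned positions with that of HLA-C and 80.8% with that of HLA-F, so these heavy chain promoters are not independent examples. These matches describe letters and were not tested as binding sites.

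The heavy chains were higher with periostin siRNA on every one of their probes. HLA-B, a classical heavy chain that presents peptides to CD8+ T cells, was read by 2 probes. The brighter one gave scaled signals of 23443 in the control culture and 30511 after knockdown, a log2 ratio of 0.38, and the other gave 22727 and 28356, a log2 ratio of 0.32. HLA-C, a classical heavy chain that also serves as a ligand of natural killer cell receptors, went from 45178 to 54975, which at 0.28 was the smallest of the heavy chain ratios. Both probes of HLA-B and the probe of HLA-C thus lay between 1.22-fold and 1.30-fold higher.

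HLA-E, which presents leader peptides of other heavy chains to natural killer cells, had scaled signals of 17901 and 24769, a log2 ratio of 0.47. HLA-F, a heavy chain found in part inside the cell, had signals of 20838 and 30293 on its brighter probe, a log2 ratio of 0.54. Its dim probe, annotated to another transcript record, had signals of 43.9 and 70.2 and a log2 ratio of 0.68. Both HLA-F probes therefore pointed the same way at very different brightness.

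HLA-G, known best from the placental trophoblast, gave signals of 59834 and 81287 on its probe, a log2 ratio of 0.44. HLA-J, a pseudogene related to the class I heavy chains, was read by 10 spots and gave 14950 and 21352, a log2 ratio of 0.51 ± 0.04 (SD over 10 spots), and HLA-L, the other of 2 named pseudogenes out of 6, was not well above background. Class I heavy chain genes are close in sequence, and the share of each signal that came from RNA of a relative was not tested, since the sequences of the probes were not used here. The 5 heavy chain ratios are for that reason not 5 independent measurements.

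**Figure D1:**
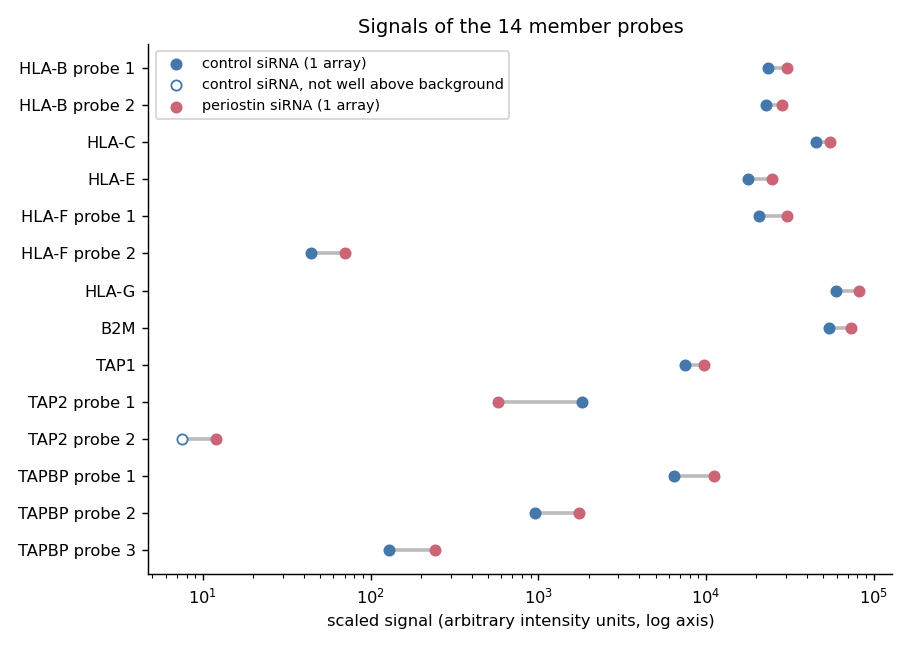
Scaled signal (log axis) of each of the 14 member probes with control siRNA (blue) and periostin siRNA (red), 1 array each; probes are numbered by brightness within a gene and an open circle marks a signal not well above background. The red point lies to the right of the blue one for every probe except TAP2 probe 1, which went from 1816 to 574.

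B2M, the light chain shared by all class I molecules, was the member whose probe was printed 10 times, so that its spots give an error of their own. The 10 spots ranged from 51569 to 56953 with control siRNA, with a median of 53944, and from 71056 to 76201 with periostin siRNA, with a median of 73453. The ranges did not overlap. Paired by position, the 10 log2 ratios lay between 0.35 and 0.53, with a mean of 0.44 ± 0.05 (SD over 10 spots), or 1.36-fold higher. This SD comes from spots on the same slide and says nothing of the spread between cultures.

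The peptide loading genes had ratios of both signs. TAP1, a subunit of the peptide transporter, went from 7508 to 9734, a log2 ratio of 0.37. TAPBP, which encodes tapasin, was read by 3 probes and had the highest ratio of the 9 genes. Its brightest probe went from 6441 to 11115, a log2 ratio of 0.79, and the others went from 954 to 1738 and from 128 to 241, with log2 ratios of 0.87 and 0.91. The 3 TAPBP probes thus gave between 1.73-fold and 1.88-fold.

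TAP2, the partner subunit of TAP1, was the exception. Its brighter probe went from 1816 in the control culture to 574 after knockdown, a log2 ratio of -1.66 or 3.16-fold lower, and 2.50% of the 16052 genes had a lower ratio. Its other probe was annotated to a different transcript record, was not well above background with control siRNA and read 12.0 with periostin siRNA, at least 1.59-fold higher. The dimmest spot well above background on the periostin siRNA array read 7.77, and the bound, a log2 ratio of 0.67, had an error of 0.43. The 2 probes of TAP2 thus disagreed in direction, but the second read close to background. No direction is given for the gene as a whole. Which transcript each probe reads was not tested.

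**Figure D2:**
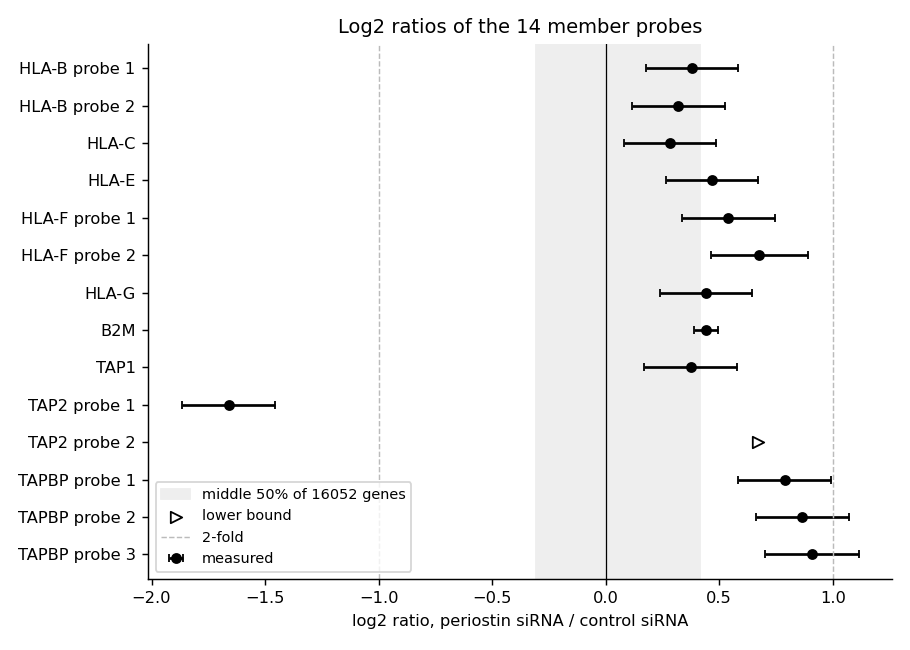
Log2 ratio of periostin knockdown over control for the 14 member probes. Bars are the SD over 10 spots for B2M and, for single spots, the error combined from the scanner software's errors of both signals. The triangle is a lower bound, the grey band holds the middle 50% of 16052 genes and dashed lines mark 2-fold. Of the 14 probes 13 lie above 0 and TAP2 probe 1 lies at -1.66.

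Set against all genes, the heavy chains, B2M, TAP1 and TAPBP had ratios above the median but below 2-fold. By its brightest probe each, 8 of the 9 members had a ratio above 0, against 54.5% of the 16052 genes. Because the members were chosen with earlier results known and the heavy chain ratios are not independent, nothing is read from that count. None of the 9 was higher by more than 2-fold, against 7.97% of genes, or by more than 3-fold, the threshold the study used, against 3.37%. At such shares few genes out of 9 would be past either threshold, so nothing is read from these counts. TAP2 was lower by more than 3-fold on its brightest probe, as were 2.75% of genes, 6.42% being lower by more than 2-fold. The median log2 ratio of the 9 members was 0.44, and that of all genes was 0.06. Of the 9, 5 exceeded 0.42, the 75th percentile of all genes, and TAP2 was the member farthest from the middle of the distribution, at the lower end. HLA-C had a higher ratio than 67.2% of genes, HLA-B 73.2%, B2M 76.2%, HLA-F 80.7% and TAPBP 88.4%.

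Most members are bright, and bright genes scatter less. Leaving TAP2 aside, the brightest probes of the other 8 members had a mean scaled signal above 6036, a limit that was chosen after their values were seen. Of 1535 genes above it, 55.7% had a ratio above 0. That all 8 members did follows from a limit that leaves TAP2 out, and nothing is read from the count. None of the 8 was past 2-fold higher, against 2.41% of the bright genes, a share too small to read anything from 8 genes. The middle 50% of these bright genes lay between -0.20 and 0.28. HLA-C was higher than 75.3% of the bright genes, B2M than 85.5% and TAPBP than 96.0%.

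The spread of the measurement at this brightness was narrow. For 85 probes above the same limit that were printed 10 times, the log2 ratio of a spot had a pooled SD of 0.05 about the mean of its probe, 95% of the spots lay within 0.09 of it, and the largest departure of the 850 spots was 0.19. This spread is that of spots on the same slide and leaves out the spread between cultures, which 1 culture per condition cannot give. Scaling the arrays on the median shifts the measured ratios of all genes together. It moved HLA-C from 0.28 to 0.15 and B2M from 0.44 to 0.31. The scanner software gives an error for each signal, and combining those of both arrays gave a wider error of 0.20 for a ratio of single bright spots. For B2M the errors of its 10 spots were averaged first, so that this error is not reduced for their number. The ratio was higher by over 1 such error for all 8 members, as it was for 36.4% of all genes. It was higher by over 2 errors for HLA-E, HLA-F, HLA-G, B2M and TAPBP, as it was for 22.6%. The 8 leave out TAP2, whose brightest probe was lower, and the shares include dim genes, so nothing is read from these counts. With the error of 0.20, the 5 heavy chains, from 0.28 to 0.54, cannot be ranked among themselves.

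**Figure D3:**
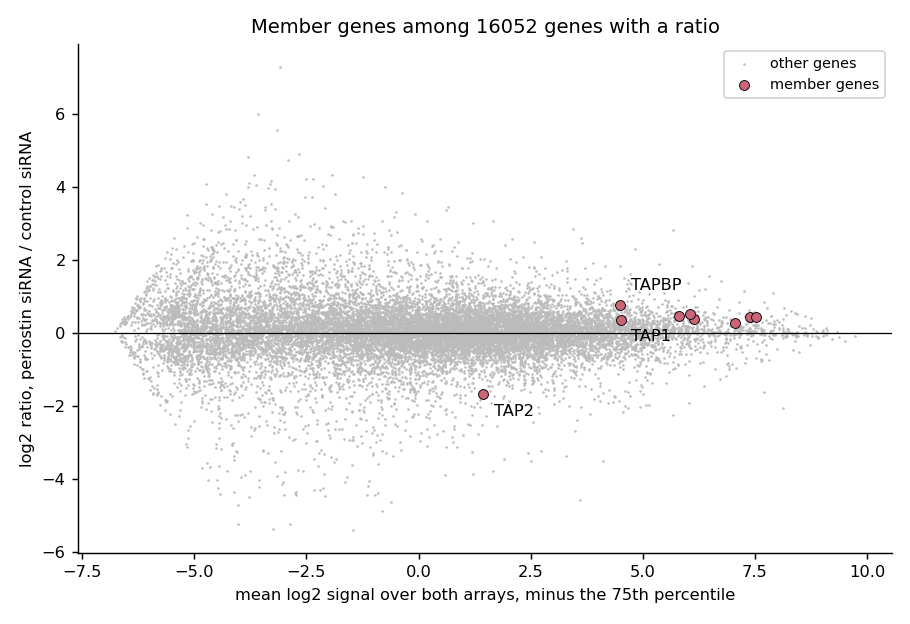
Log2 ratio of periostin knockdown over control against mean log2 signal over both arrays for 16052 genes (grey), with the 9 members in red. The 8 members other than TAP2 sit in a narrow strip between 0.28 and 0.79 at the bright end, and TAP2 lies at -1.66.

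In a list of 13 genes for peptide editing and trimming, 4 had a ratio above 0 and 9 below, against 54.5% of all genes above 0, with a median log2 ratio of -0.15. Several of the 9 lay within the error of 0.20 of 0, among them BLMH at -0.01 and THOP1 at -0.09. TAPBPL, a tapasin-related editor that acts outside the loading complex, had the highest ratio, from 286 to 606 or 1.08, and was the gene of this list past 2-fold. ERAP1, which trims peptides in the endoplasmic reticulum, went from 230 to 334, a ratio of 0.54, whereas its relative ERAP2 gave -0.15. The chaperones of the loading complex were lower or close to 0, with CALR at -0.32 and PDIA3 at -0.19. CANX, a chaperone that folds the free heavy chain, gave -0.53. The probes of PDIA3 disagreed in sign, at -0.19 and 0.12. NRDC, a cytosolic peptidase, was the lowest at -0.56.

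The immunoproteasome, which cuts many of the peptides that TAP carries, was nearly level. Its 5 genes lay between -0.10 and 0.18, with PSMB8 at -0.10, PSMB9 at 0.16 and PSME2 at 0.18. PSMB8 and PSMB9 lie beside TAP1 on chromosome 6.

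Of 16 genes that regulate class I transcription, 10 had a ratio above 0 and 6 below, a share near the 54.5% of all genes above 0. Their median log2 ratio was 0.22, and 0.09 with scaling on the median. IRF9, a DNA-binding subunit of the interferon-activated factor ISGF3, was the highest, going from 840 to 2017, a ratio of 1.26. STAT2, which binds IRF9, gave 0.34. NLRC5, the transactivator of class I genes, went from 53.4 to 109 on its brighter probe, a ratio of 1.03, but its other probe gave 0.23. IRF9 and NLRC5 were the 2 genes of this list past 2-fold, against 7.97% of all genes, and NLRC5 was below 2-fold under normexp, under scaling on the median and as the mean over its probes. IRF1, which binds class I promoters, gave -0.14, and IRF2 gave -0.69 at a dim signal of 31.6 with control siRNA. The NF-Y subunits gave -0.16 for NFYA, 0.27 for NFYB and 0.44 for NFYC.

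Of 14 class I-like genes 12 were named and 11 had a ratio, of which 7 were above 0, the bound for AZGP1 being among the 4 below, against 54.5% of all genes above 0. Their median log2 ratio was 0.33, and 0.18 with normexp background correction and 0.20 with scaling on the median. MR1, which presents vitamin B metabolites to mucosal-associated T cells and also pairs with β2-microglobulin, was the gene past 3-fold. It went from 65.7 to 283, a log2 ratio of 2.11, and its other probe gave 2.24. FCGRT, the heavy chain of the neonatal Fc receptor, gave 0.46, and HFE, an iron regulator that pairs with the same light chain, gave 0.01. MICA and MICB, stress ligands of the NKG2D receptor, gave 0.34 and 0.33. RAET1E was the lowest at -0.62, from a signal of 15.4, and CD1D was not well above background on either array.

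Class II genes, which serve antigen-presenting cells, had a median log2 ratio of -0.04 over 10 genes with a ratio out of 13, with 4 above 0 and 6 below against 54.5% of all genes above 0, bounds for CIITA and CD74 included. HLA-DPB1 was the lowest, from 642 to 305 or -1.07, and its 4 probes lay between -1.18 and -1.03. HLA-DMA was the highest, from 488 to 829 or 0.77, with 0.69 on its other probe. HLA-DRA, HLA-DRB5 and HLA-DQA1 were not well above background on either array. CD74, the invariant chain, was well above background with periostin siRNA alone, at a signal of 9.57.

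**Figure D4:**
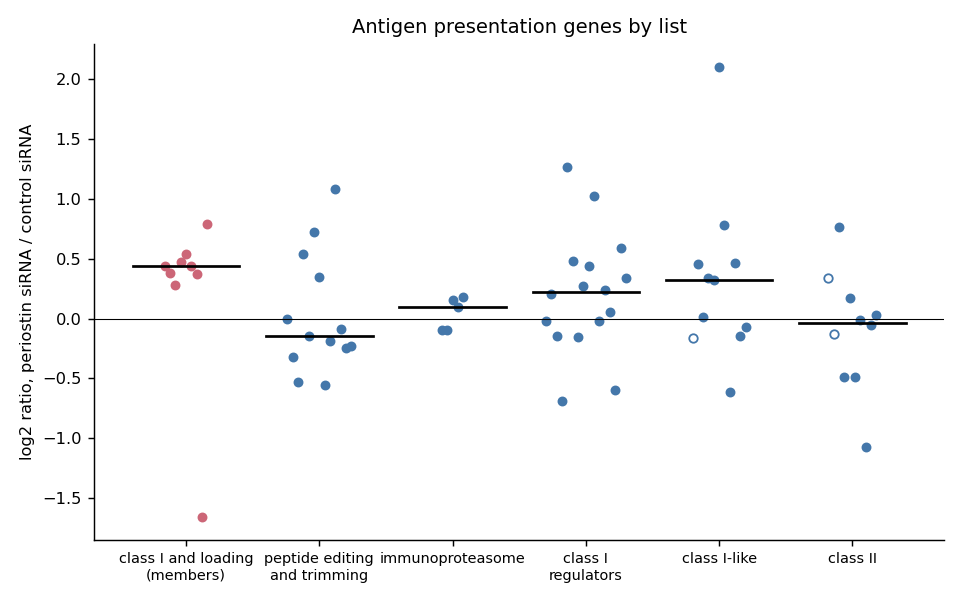
Log2 ratios of periostin knockdown over control for the members and 5 other lists of antigen presentation genes, 1 point per gene by its brightest probe; the black bar is the median of the list and open circles are bounds. The members have a median of 0.44, against -0.15 for peptide editing and trimming and -0.04 for class II.

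All members but B2M, which is on chromosome 15, lie on chromosome 6 in the MHC region. From HLA-F to TAPBP, RefSeq lists 293 genes there, and 109 genes other than HLA genes and the class I-like list had a ratio. Of these 109, 57.8% were above 0 and 34.9% were above 0.25, close to the 54.5% and 35.0% over all genes, and their median was 0.06. GNL1, next to HLA-E, gave 0.03, and RGL2, next to TAPBP, gave 0.07, while MICA, next to HLA-B, gave 0.34. HLA-DOB, next to TAP2, gave -0.49 at dim signals of 32.7 and 23.3, and -0.12 with normexp background correction. PSMB8, on the other side of TAP2, gave -0.10.

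The other 8 members kept their direction under each way of processing that was tried, and TAP2 kept the sign of its brightest probe or of the mean over its probes. Over 10 settings of background correction, scaling and probe choice, the log2 ratio ranged from 0.31 to 0.49 for B2M, from 0.15 to 0.36 for HLA-C, from 0.41 to 0.61 for HLA-F and from 0.66 to 0.85 for TAPBP. For TAP2 it ranged from -1.79 to -0.49, and the value nearest 0 was the mean of its disagreeing probes.

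**Figure D5:**
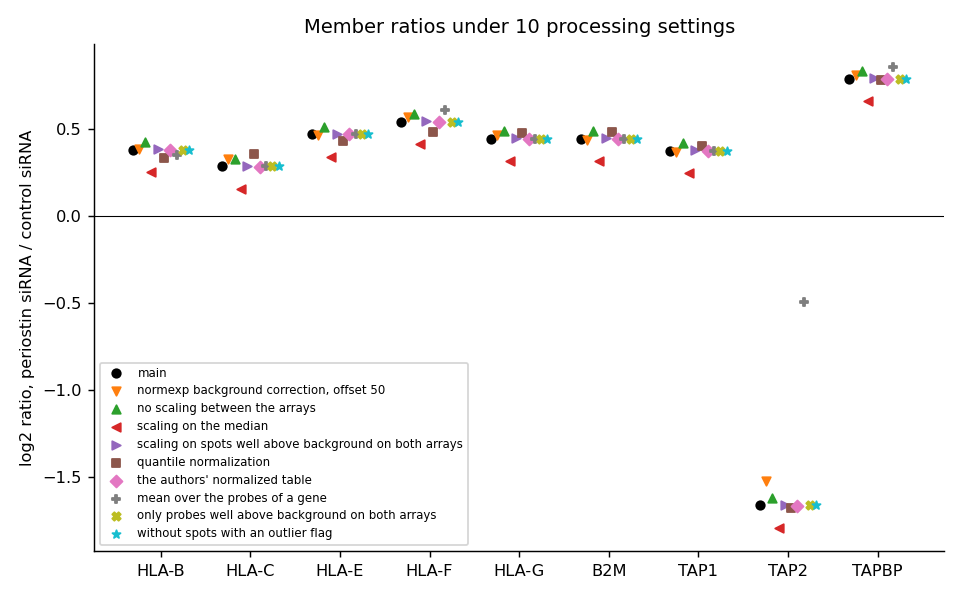
Log2 ratio of periostin knockdown over control for each of the 9 members under 10 processing settings, 1 marker per setting. The markers of 8 genes stay above 0 and those of TAP2 stay below 0, with scaling on the median lowest for each gene.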

How the data were processed

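RNA of 1 culture per condition was labelled with Cy3 and hybridized to SurePrint G3 Human arrays annotated on hg19. The intensity values in the scanner files that the authors deposited were background-subtracted and detrended, with no scaling between arrays; file headers name Feature Extraction 11.5.1.1, the submitters' processing notes 12.0.3.1. A second deposited table holds normalized intensity, equal for probes printed once to the scanner value times 3.65 (control) and 3.54 (knockdown), with column medians of 75.7 and 82.8 and nearly equal 75th percentiles of 1358 and 1357, so that it carries the same scaling as used here and is no independent alternative; its normalization method is not given in the sources used here.

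Here the 75th percentile over 58717 non-control spots (372 for control, 383 for knockdown) was subtracted on the log2 scale in Python 3.11.15 with numpy 2.4.6 and pandas 2.3.3. Spots of 1 probe were averaged, and the brightest probe stood for a gene. A probe below background on 1 array got a bound, set by its own signal there or by the dimmest spot well above background, whichever was higher; a probe below background on both got no ratio. RefSeq accessions named 65.1% of spots. The number of arrays limits the precision. Named genes were the 9 members, POSTN and, of each other list, genes past 3-fold, the highest, the lowest and those below background; others are examples chosen after their values were seen, and some genes of the lists are not reported here. Members and lists were chosen with earlier results of these data known. The calculation was tested on simulated data. Alternatives were normexp with an offset of 50 (limma 3.58.1, R 4.3.3), other scalings, the second deposited table, the mean over probes and filters on dim or outlier spots.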

Additional observations from a re-analysis of the deposited data

How the results depend on the processing

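Under 9 alternatives, of which the second deposited table repeats the scaling used here, the 9 members kept the sign of their ratios, 8 of 9 were above 0, and none was past 2-fold or 3-fold higher. Taking the median for scaling moved the all-gene median by -0.13 and gave 0.31 for the median of the members and for B2M, and in each of the 10 settings 8 members lay above the median of all genes. The share of higher genes among those past 3-fold was 55.1% in the main setting, 42.9% under normexp with an offset of 50 (143 higher and 190 lower, against 541 and 441) and 46.3% under scaling on the median. Medians close to 0 changed sign: that of the immunoproteasome was -0.031 under scaling on the median and that of class II was 0.0082 without scaling between the arrays. Normexp, whose offset pulls dim probes towards 0 by construction, gave 1.46 for MR1, below 3-fold, and 0.88 for TAPBPL, 0.55 for NLRC5 and -0.88 for HLA-DPB1, below 2-fold. Scaling on the median gave 0.95 for TAPBPL and 0.90 for NLRC5, also below 2-fold. The mean over probes gave 0.63 for NLRC5, below 2-fold, and -0.49 for TAP2. No paired analysis was possible because either siRNA was given to a single culture, and no replicate could be left out. Signal over background limits TAP2 probe 2 to a bound.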
